A study of Homo sapiens with 12 samples.

Results

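A set of 10 genes used as markers of cancer stem cells were followed by name through the RNA sequencing data of a pancreatic cancer cell line: CD44, CD24, PROM1, ALDH1A1, ALDH1A3, SOX2, POU5F1, BMI1, MYC and DCLK1. All 10 were among the 23284 gene symbols listed, and 6 of them were among the 12946 genes that could be tested, namely those with a level of at least 1 FPKM in at least 2 of the 12 libraries. FPKM counts the fragments of a gene per kilobase of its exons and per fixed number of mapped reads, so levels of different genes can be compared per length.

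The cells were labelled PANC-1, an established line from a human pancreatic ductal carcinoma. Every library came from cells that carried a reporter, ZsGreen fused to the degron of ornithine decarboxylase, which glows when proteasome activity is low and was brought in by retrovirus. Degron (++) cells were sorted repeatedly for bright ZsGreen, and degron (−) cells were the population with few ZsGreen cells. Each population gave 2 unirradiated libraries (0 Gy, 48 h), 2 libraries with 4 Gy and 30 h and 2 with 4 Gy and 48 h, and no unirradiated 30 h group was analysed here. The 6 libraries taken as degron (−) have titles that say ZsGreen– and descriptions that say d+, and the titles were followed. Nothing in the labels says that the 2 libraries of a group came from separate cultures, so the p-values measure the spread between these libraries, which may be technical. In such bulk samples, fewer cells of a type and less RNA per cell cannot be told apart.

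Cancer stem cells are the part of a tumour that can renew itself and seed new growth, and they are usually sought by a few marker genes. Surface proteins (CD44, CD24 and PROM1, also called CD133) are used to sort them, aldehyde dehydrogenases are read out as enzyme activity, and transcription and chromatin factors (SOX2, POU5F1, MYC, BMI1) maintain self-renewal in embryonic or adult stem cells. In pancreatic cancer, cells with CD44 and CD24, cells with PROM1, cells with high aldehyde dehydrogenase activity and cells with the tuft cell kinase DCLK1 have each been studied as stem-like.

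The libraries differed far beyond the markers. FPKM summed to between 829654 and 916877 per degron (++) library and between 707273 and 763064 per degron (−) library, and the single gene MIR622 made up 28.6% to 30.0% and 22.5% to 27.1% of these totals. Depth was not given, and judged from the spacing of low values it ranged from 0.858 to 1.17 of the typical library. All 6 epithelial markers checked reached 1 FPKM in both populations, as in a carcinoma line. VIM, the intermediate filament protein vimentin that PANC-1 cells are known to make in abundance, was at 13.2 to 19.2 FPKM in degron (++) and at 2376 to 2711 FPKM in degron (−). CDKN2A, a cell cycle inhibitor gene known to be deleted in PANC-1, was at 100.4 to 112 FPKM in degron (++) and at 11.0 to 21.1 FPKM in degron (−). VIM in degron (++) and CDKN2A in both populations, most of all in degron (++), went against the line named in the labels, and every difference between the populations given here rests on those libraries. Whether they held another line or a mixture of cells was not tested.

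Between the populations, ALDH1A3 was the marker that was higher in degron (++), about 4-fold, while CD44 and CD24 were lower there, about 3-fold. MYC and BMI1 were lower by less, DCLK1 was near the lower limit of what could be tested and had 1.42 to 3.04 times the mean FPKM in degron (++), and PROM1, ALDH1A1, SOX2 and POU5F1 were too low to judge. For ALDH1A3, CD44 and CD24 the differences with dose and time were much smaller than those between the populations, whereas MYC differed by 0.33 on the log2 scale with dose in degron (++) beside −0.17 to −0.78 between the populations.

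**Figure D1:**
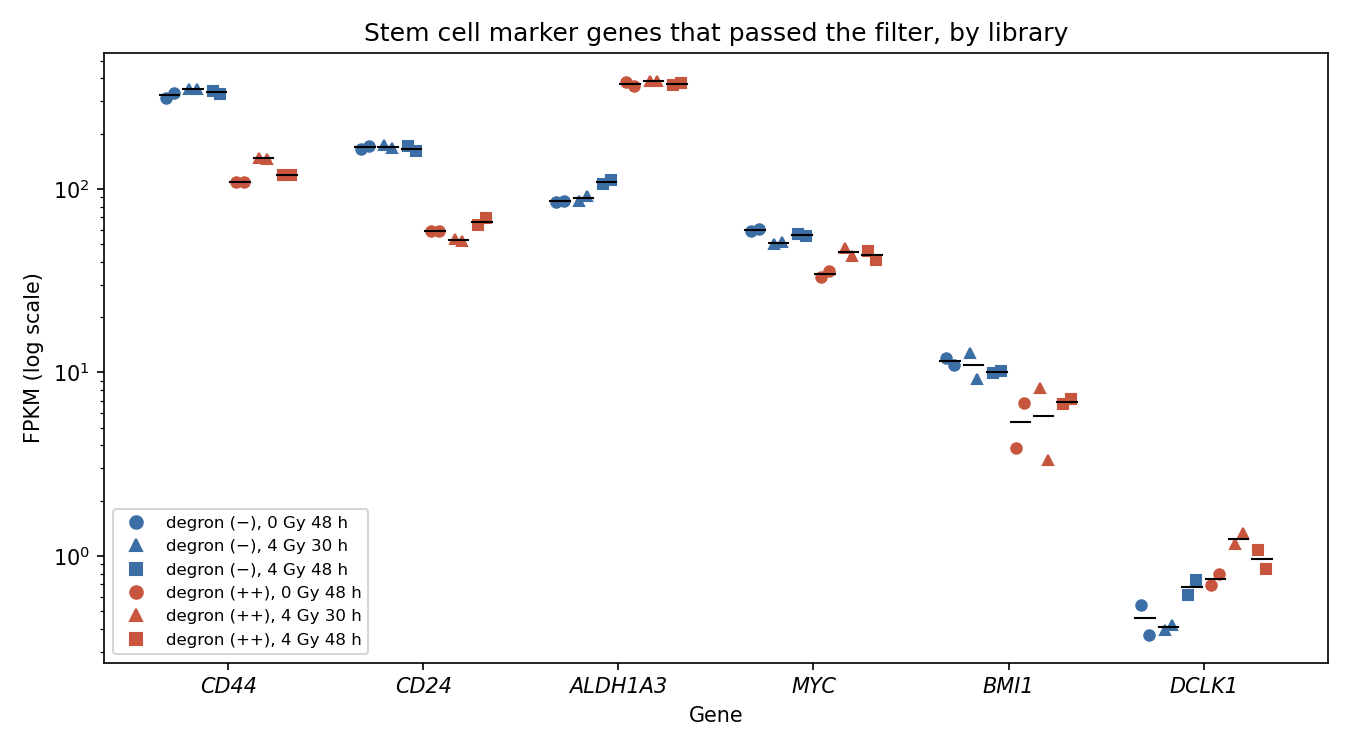
FPKM of the 6 tested markers in each of the 12 libraries, on a log scale; each point is 1 library, bars are means of the 2 libraries of a group, blue is degron (−) and red is degron (++). ALDH1A3 lies at 362 to 388 FPKM in red and 85.1 to 112 FPKM in blue, CD44 and CD24 lie the other way round, and BMI1 scatters most within a group.

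DCLK1 passed the filter on low values only through 3 degron (++) libraries and 0 degron (−) libraries, so its difference between the populations is given as a description, with no test. Of the other 5 tested markers, 5 passed an adjusted p of 0.05 in the limma test at 0 Gy and 48 h, 1 higher and 4 lower in degron (++). Of all genes tested, 77.7% passed in that comparison, 37.6% higher and 40.2% lower, so a call alone sets no marker apart. At 4 Gy 30 h the counts were 1 higher and 4 lower, beside 79.1% of all genes called (38.3% higher, 40.8% lower). At 4 Gy 48 h they were 1 higher and 3 lower, beside 76.7% of all genes (37.1% higher, 39.6% lower). By the stricter rule of a log2 fold change of at least 1, ALDH1A3 was higher and CD44 and CD24 were lower in all 3 conditions, and BMI1 was lower at 0 Gy and 48 h. That rule was met by 10.8%, 11.7% and 9.14% of genes in the higher direction and by 13.5%, 14.6% and 12.8% in the lower direction, at 0 Gy 48 h, 4 Gy 30 h and 4 Gy 48 h. The median log2 fold change of these 5 markers was −1.01, −0.91 and −0.48, beside −0.02, −0.02 and −0.01 over all genes. Over all 6 and 6 libraries, 1 marker lay wholly higher and 4 lay wholly lower in degron (++), beside 34.1% and 37.2% of all genes, and the libraries of DCLK1 overlapped.

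**Figure D2:**
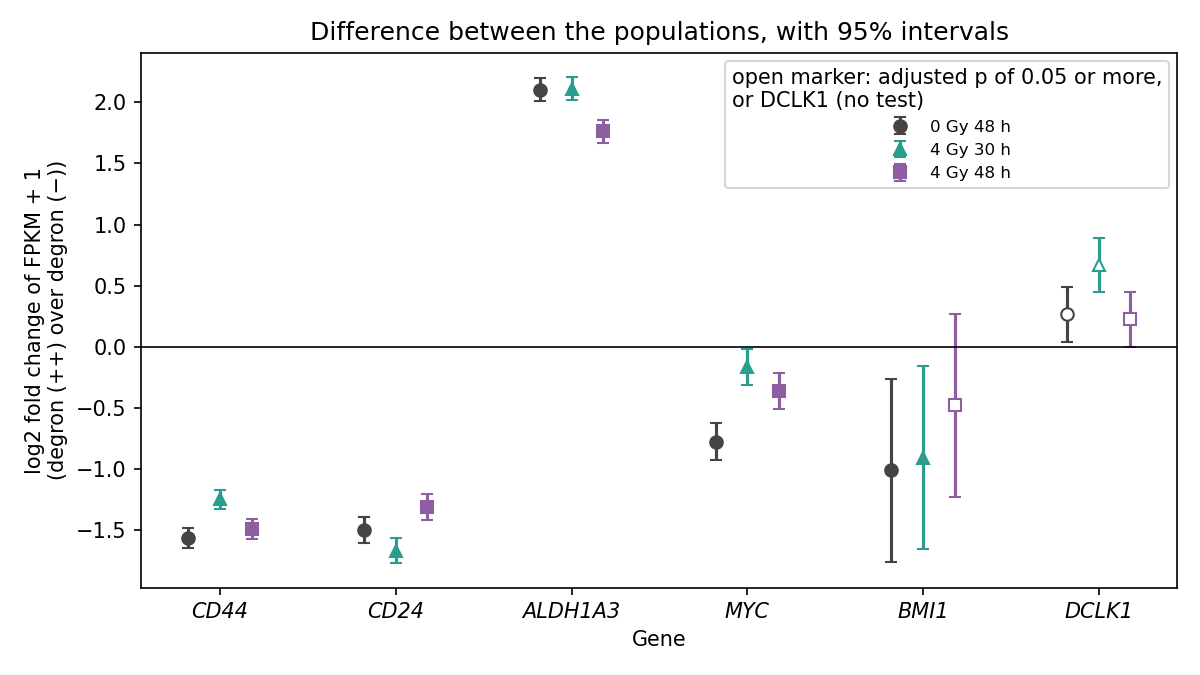
Log2 fold change of FPKM + 1, degron (++) over degron (−), for each tested marker in the 3 conditions, with 95% intervals from limma; open markers have an adjusted p of 0.05 or more, or belong to DCLK1, which has no test here. ALDH1A3 stands at 1.76 to 2.11, CD44 and CD24 at −1.25 to −1.67, and the interval of BMI1 crosses 0 at 4 Gy 48 h.

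CD44 is the main cell surface receptor for hyaluronan, a sugar chain of the extracellular matrix. Its promoter, 250 bases before to 50 bases after the transcription start, is shown as the control region of a marker that fell in degron (++) (RefSeq, GRCh38.p14, chr11:35138921-35139220, plus strand), and so are those of CD24, ALDH1A3 and BMI1 with their genes. In all of them capitals mark GC boxes, GGGCGG or CCGCCC on the other strand, which may overlap each other, and the palindromic E-box CACGTG that MYC and MAX can bind.
CD44: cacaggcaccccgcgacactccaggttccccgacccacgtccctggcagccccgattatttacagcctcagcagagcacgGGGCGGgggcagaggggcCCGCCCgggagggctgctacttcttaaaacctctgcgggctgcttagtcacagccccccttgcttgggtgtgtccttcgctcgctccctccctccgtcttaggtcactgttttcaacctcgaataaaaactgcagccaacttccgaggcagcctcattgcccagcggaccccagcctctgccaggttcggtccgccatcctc
The CD44 promoter held 2 GC boxes and no E-box. Over all 35116 RefSeq promoters of this length, 45% held a GC box and 7.26% held the E-box, and a match is a description of the letters, not a bound site.

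In degron (++) libraries CD44 was at 109 and 109 FPKM at 0 Gy 48 h, at 147 and 146 FPKM at 4 Gy 30 h and at 119 and 119 FPKM at 4 Gy 48 h. In degron (−) libraries it was at 314 and 334 FPKM, at 352 and 348 FPKM and at 342 and 330.0 FPKM in the same order. Every degron (−) library was above every degron (++) library, and within a population the 30 h libraries were the highest. The level in degron (−) was 2.98, 2.39 and 2.83 times that in degron (++). On the log2 scale of FPKM + 1, the differences were −1.57, −1.25 and −1.49 with an SE of 0.03 each, and the limma adjusted p was 1.05e-09, 3.51e-09 and 1.6e-09. CD44 was the marker with the highest level per length in degron (−) cells, and came after ALDH1A3 in degron (++) cells. FPKM per gene does not separate the splice forms of CD44.

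CD44 fell from 30 h to 48 h at 4 Gy in degron (++), by 0.30 on the log2 scale (SE 0.03, limma adjusted p 0.011), the direction seen in 2 of 2 libraries. In degron (−) the same difference was −0.06 (adjusted p 0.376). The difference between these differences was −0.24 (SE 0.05, adjusted p 0.0400). Between 0 Gy and 4 Gy at 48 h the differences were 0.13 in degron (++) (95% interval 0.05 to 0.21, adjusted p 0.113) and 0.05 in degron (−) (−0.03 to 0.13, adjusted p 0.453). The fall in degron (++) lost its call without any 1 of the 4 libraries compared, with an adjusted p of up to 0.0907.

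Of 13 genes that splice CD44, make or cut its ligand or bind its tail, 11 were tested, and 5 were higher and 4 lower in degron (++) at 0 Gy 48 h, beside 37.6% and 40.2% of all genes. A listed gene that reached 1 FPKM in libraries of only 1 population passed the filter through it and had to differ, so such genes are given by their FPKM with no test, and counts over the lists, which hold 0 to 2 of them each, are descriptions. ESRP1, a splicing factor that favours the epithelial variant exons of CD44, was at 53.7 and 52.1 FPKM in degron (++) and at 9.27 and 8.84 FPKM in degron (−) (log2 fold change 2.42, limma adjusted p 7.53e-09). HAS3, a hyaluronan synthase, went the other way, from 13.1 and 18.4 FPKM in degron (−) to 0.547 and 0.341 FPKM in degron (++) (log2 fold change −3.52, adjusted p 5.28e-08). HAS2, another synthase, was listed at 0 in all 6 degron (++) libraries and at 1.01 to 1.58 FPKM in degron (−). HYAL1, which cuts hyaluronan, was at 1.91 and 2.13 FPKM in degron (++) against 0.235 and 0.325 FPKM, and passed the filter only through degron (++). The median log2 fold change of the list was 0.10. UAP1, an enzyme of sugar nucleotide synthesis, and LOXL2, a collagen cross-linking enzyme, had the patterns closest to that of CD44 over the 12 libraries, with a root mean square difference of 0.0668 and 0.0760 in centred log2 values. Within 2 times the smaller difference lay 65 genes.

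CD24 is a small, heavily glycosylated surface protein held by a lipid anchor. RefSeq holds 3 promoter entries for CD24. The 1 shown, as that of the other surface marker that fell, lies on the minus strand at chr6:106975578-106975877 of GRCh38.p14.
CD24: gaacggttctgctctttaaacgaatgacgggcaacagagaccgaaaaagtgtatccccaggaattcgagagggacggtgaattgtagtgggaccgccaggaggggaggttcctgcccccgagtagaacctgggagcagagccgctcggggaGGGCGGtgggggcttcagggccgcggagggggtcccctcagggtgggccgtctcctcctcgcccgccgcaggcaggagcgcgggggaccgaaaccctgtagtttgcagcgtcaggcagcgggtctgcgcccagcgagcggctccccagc
It held 1 GC box and no E-box. The other CD24 entries held 1 and 0 GC boxes and no E-box. RefSeq also names 5 CD24 pseudogenes, of which 0 are among the symbols listed, so reads of near-identical copies cannot be told apart from those of CD24 and its level is uncertain to that extent.

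CD24 was at 58.8 and 58.9 FPKM at 0 Gy 48 h, 53.4 and 52.3 FPKM at 4 Gy 30 h and 63.4 and 69.1 FPKM at 4 Gy 48 h in degron (++). In degron (−) it was at 166 and 170.3 FPKM, 172 and 168 FPKM and 171 and 161 FPKM. No library of one population overlapped the other, and the degron (−) libraries spanned a narrow range. The level in degron (−) was 2.85, 3.22 and 2.50 times that in degron (++), with log2 fold changes of −1.50, −1.67 and −1.31 (SE 0.05 each, limma adjusted p 7.26e-09, 3.18e-09 and 1.89e-08). CD44 and CD24 were both lower in degron (++), and both remained above MYC, BMI1 and DCLK1 there, CD24 only a little above MYC at 4 Gy 30 h.

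CD24 rose from 30 h to 48 h at 4 Gy in degron (++), by 0.32 (SE 0.05, limma adjusted p 0.0207), which is the opposite direction to CD44 in the same libraries. In degron (−) the difference was −0.04 (adjusted p 0.692), and the difference between the populations was 0.36 (SE 0.06, adjusted p 0.0273). The rise lost its call when either 30 h library or replicate 2 at 48 h was left out, with an adjusted p of up to 0.14. Between 0 Gy and 4 Gy at 48 h the values were 0.17 in degron (++) (95% interval 0.06 to 0.27, adjusted p 0.114) and −0.02 in degron (−) (−0.12 to 0.09, adjusted p 0.864). The genes with the closest pattern to CD24 were GATA2, a transcription factor of blood stem cells, and LEPREL4, with root mean square differences of 0.0605 and 0.0653. Within 2 times the smaller difference lay 71 genes.

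PROM1, the pentaspan membrane protein CD133, was listed at 0 in 11 of 12 libraries and at 0.023 FPKM in 1 degron (−) library at 4 Gy 30 h. It is too low to judge in every comparison.

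Of 15 other surface and transporter markers of stem-like cells, 10 were tested, and 5 were higher and 4 lower in degron (++) in each of the 3 conditions, beside 37.6%, 38.3% and 37.1% of all genes higher and 40.2%, 40.8% and 39.6% lower. EPCAM, an epithelial adhesion molecule often sorted together with CD44 and CD24, was at 179 and 176 FPKM in degron (++) at 0 Gy 48 h and at 37.4 and 37.6 FPKM in degron (−) (log2 fold change 2.21, limma adjusted p 6.14e-09). ALCAM, the adhesion molecule CD166, was at 44.6 and 43.1 FPKM against 10.4 and 9.39 FPKM (log2 fold change 2.04, adjusted p 7.21e-09). NES, the neural progenitor filament protein nestin, was at 3.52 and 3.56 FPKM in degron (++) and 81.7 and 86.95 FPKM in degron (−) (log2 fold change −4.23, adjusted p 4.01e-11), and PROCR, the endothelial protein C receptor, was at 4.08 and 5.03 FPKM against 49.2 and 52.7 FPKM (log2 fold change −3.23, adjusted p 1.58e-09). Members of this list therefore lay far apart in both directions, around a median of 0.25. KIT was listed at 0 in every library.

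ALDH1A3 oxidises retinaldehyde to retinoic acid and is one of the enzymes that aldehyde dehydrogenase assays read. Its promoter, at chr15:100879581-100879880 on the plus strand of GRCh38.p14 by RefSeq, is shown as that of the marker that was higher in degron (++).
ALDH1A3: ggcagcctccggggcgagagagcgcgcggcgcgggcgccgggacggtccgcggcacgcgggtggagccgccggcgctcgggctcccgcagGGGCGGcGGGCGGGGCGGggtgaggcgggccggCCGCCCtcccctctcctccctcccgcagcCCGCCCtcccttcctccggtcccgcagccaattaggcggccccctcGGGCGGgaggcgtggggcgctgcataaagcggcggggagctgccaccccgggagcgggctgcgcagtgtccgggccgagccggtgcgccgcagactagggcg
It held 6 GC boxes and no E-box.

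ALDH1A3 was at 381 and 362 FPKM at 0 Gy 48 h, 386 and 388 FPKM at 4 Gy 30 h and 368 and 379 FPKM at 4 Gy 48 h in degron (++). In degron (−) it was at 85.1 and 85.9 FPKM, 86.3 and 91.25 FPKM and 107 and 112 FPKM. All degron (++) libraries were above all degron (−) libraries, and within degron (−) both 48 h libraries at 4 Gy were above the other 4. The ratio of degron (++) to degron (−) was 4.34, 4.36 and 3.42, and the log2 fold changes were 2.10, 2.11 and 1.76 (SE 0.04 each, limma adjusted p 4.83e-10, 4.25e-10 and 1.49e-09). Of all genes tested, 93.4%, 92.4% and 91.8% had a smaller absolute change in the same comparisons. ALDH1A3 had the highest level of the 10 genes in degron (++) cells and came below CD44 and CD24 in degron (−) cells.

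In degron (−), ALDH1A3 rose with 4 Gy at 48 h by 0.35 (SE 0.04, limma adjusted p 0.00371) and from 30 h to 48 h at 4 Gy by 0.30 (adjusted p 0.00376), in 2 of 2 libraries each time. In degron (++) the same differences were 0.01 (95% interval −0.08 to 0.10, adjusted p 0.953) and −0.05 (−0.14 to 0.04, adjusted p 0.609). The time difference itself differed between the populations by −0.35 (SE 0.06, adjusted p 0.0197), whereas for dose the difference was −0.34 (adjusted p 0.0868). Many other named genes that were several times higher in degron (++) also had higher means at 48 h than at 30 h in these degron (−) libraries. EPCAM had means of 30.9 and 48.8 FPKM at 30 h and 48 h there, and ALCAM 7.4 and 12.8 FPKM. A rise with time there was therefore not particular to ALDH1A3. ALDH5A1, also higher in degron (++), went the other way, with a mean of 4.39 FPKM at 30 h and 4.23 FPKM at 48 h there. CDKN2A was at 11.0 to 12.4 FPKM at 30 h and 19.1 to 21.1 FPKM at 48 h in degron (−) at 4 Gy (log2 fold change 0.73, adjusted p 0.00277), and ESRP1 was at 5.65 to 5.86 FPKM and 9.02 to 11.05 FPKM (log2 fold change 0.70, adjusted p 0.00118). CDKN2B and MTAP, which lie beside CDKN2A, were 0.80 and 0.55 higher at 48 h (adjusted p 0.00315 and 0.0028). With dose these 4 genes did not pass in degron (−), with log2 fold changes of 0.23 for CDKN2A, 0.13 for ESRP1, 0.45 for CDKN2B and 0.27 for MTAP (adjusted p 0.201, 0.374, 0.0519 and 0.0673). These genes, EPCAM, ALCAM and ALDH5A1 were picked with their values known, and their part in the change of ALDH1A3 was not tested.

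**Figure D3:**
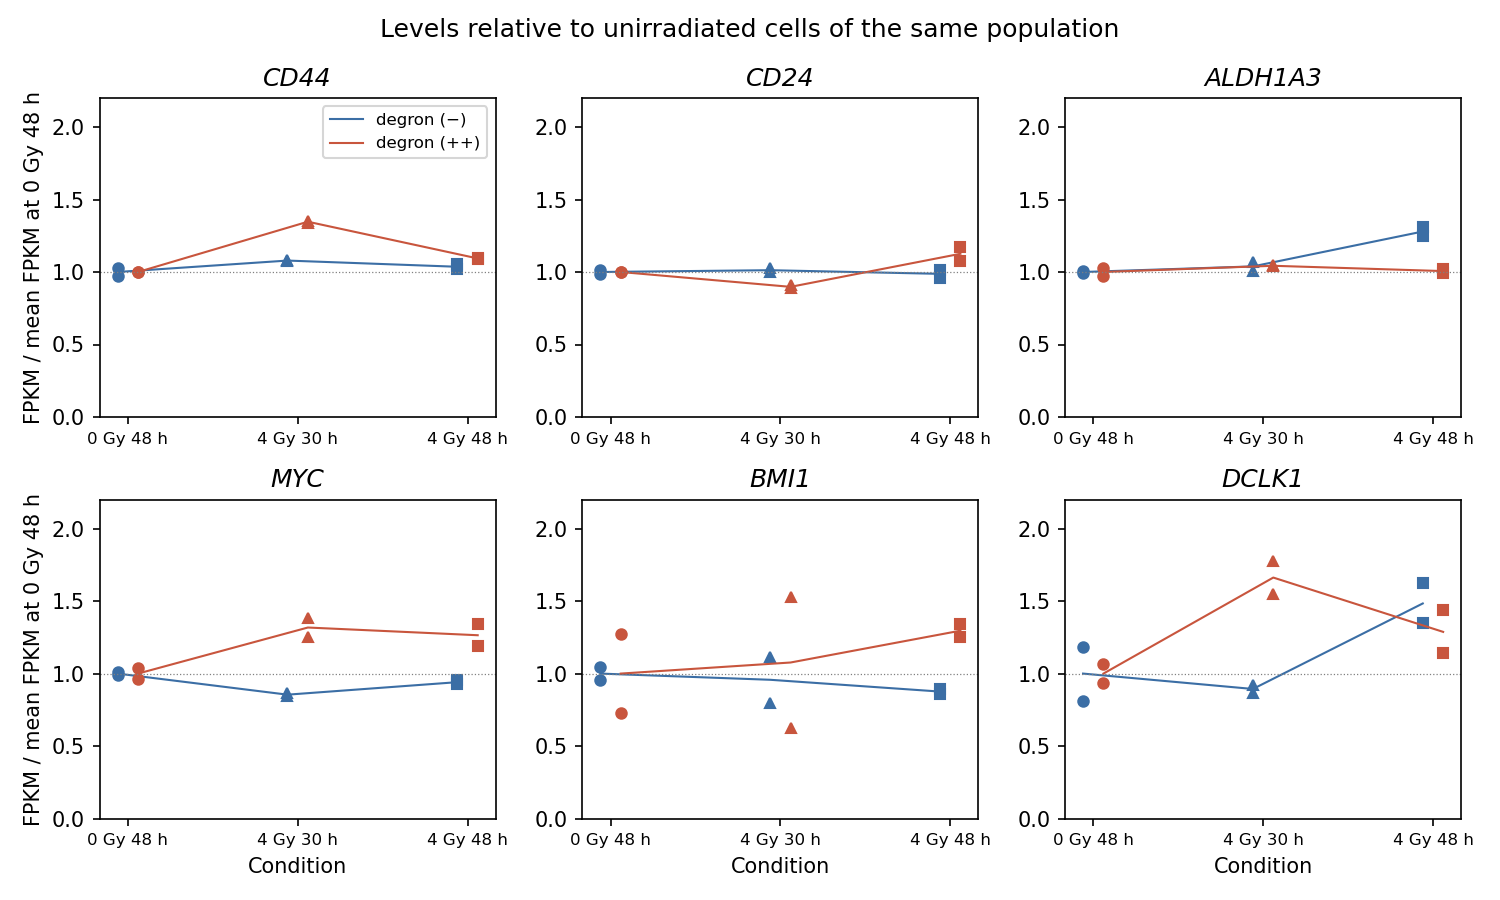
FPKM of each tested marker divided by the mean of the 2 unirradiated libraries of the same population, by condition; points are libraries and lines join means, blue for degron (−) and red for degron (++). ALDH1A3 moves in blue and CD44 in red, while BMI1 and DCLK1 spread widely within groups.

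ALDH1A1, the closely related enzyme that also makes retinoic acid, was at 0.115 to 0.195 FPKM in degron (++) and 0.039 to 0.263 FPKM in degron (−), and did not reach 1 FPKM in any library. Its values fell on whole multiples of 0.0382 FPKM, after scaling for relative depth, in 12 of 12 libraries within 0.15 of a whole step. Read in that way it had 1 to 8 steps per library, 25 in all 6 degron (++) libraries and 20 in all 6 degron (−) libraries. If a step is 1 fragment, each library holds a handful of them, and ALDH1A1 is too low to judge. Measured per length, ALDH1A3 was far more abundant than ALDH1A1 in both populations.

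Of 17 other aldehyde dehydrogenases, 11 were tested, with 6 higher and 2 lower in degron (++) at 0 Gy 48 h, beside 37.6% and 40.2% of all genes, around a median of 0.33. ALDH3B1, which oxidises lipid aldehydes, was at 41.0 and 40.4 FPKM in degron (++) and 7.64 and 6.46 FPKM in degron (−) (log2 fold change 2.38, limma adjusted p 4.82e-08). ALDH5A1, the succinate semialdehyde dehydrogenase, was at 12.9 and 11.3 FPKM against 4.295 and 4.16 FPKM (log2 fold change 1.32, adjusted p 1.79e-07), and ALDH6A1, of valine breakdown, was at 1.49 and 1.98 FPKM against 0.495 and 0.403 FPKM. ALDH2, which clears acetaldehyde, was listed at 0 in both unirradiated degron (++) libraries and at 4.04 and 3.545 FPKM in the degron (−) ones. After rescaling each library to a fixed sum, 5 members were higher and 5 lower, beside 27.2% and 48.6% of all genes.

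Of 16 genes that carry retinoids, act beside the ALDH1A enzymes or respond to retinoic acid, 11 were tested, with 9 higher and 1 lower in degron (++) at 0 Gy 48 h, 9 and 1 at 4 Gy 30 h and 10 and 1 at 4 Gy 48 h. Of all genes, 37.6%, 38.3% and 37.1% were higher and 40.2%, 40.8% and 39.6% lower. The medians of the list were 0.80, 1.23 and 1.11, and after rescaling each library to a fixed sum 7, 8 and 8 members were higher, beside 27.2%, 25.9% and 23.5% of all genes. RARRES3, named for its response to retinoids, was at 249 and 251 FPKM in degron (++) and 29.25 and 25.45 FPKM in degron (−) (log2 fold change 3.15, limma adjusted p 5.84e-08). RARRES1, of the same naming, was at 14.4 and 12.9 FPKM against 0.974 and 1.01 FPKM (log2 fold change 2.88, adjusted p 6.43e-08). RARG, a retinoic acid receptor, was at 71.5 and 71.9 FPKM against 24.85 and 21.4 FPKM (log2 fold change 1.60, adjusted p 1.56e-07). GDA and CREG1 had the pattern closest to ALDH1A3, with root mean square differences of 0.0710 and 0.0737, and 85 genes lay within 2 times the smaller difference.

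MYC is a transcription factor that drives growth and ribosome production together with its partner MAX. In degron (++) MYC was at 33.0 and 35.6 FPKM at 0 Gy 48 h, 47.4 and 43.0 FPKM at 4 Gy 30 h and 45.9 and 40.8 FPKM at 4 Gy 48 h. In degron (−) it was at 58.8 and 60.1 FPKM, 50.2 and 51.5 FPKM and 56.7 and 55.2 FPKM. The populations did not overlap, but at 4 Gy 30 h the highest degron (++) library came close to the lowest degron (−) library. The log2 fold change was −0.78 without irradiation, −0.17 at 4 Gy 30 h and −0.36 at 4 Gy 48 h (SE 0.07 each), with limma adjusted p of 4.42e-06, 0.0413 and 0.000796. Without 1 library the middle value ran from −0.24 to −0.10, and 7 of 12 such fits lost its call (adjusted p up to 0.26).

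In degron (++), MYC was 0.33 higher at 4 Gy than at 0 Gy at 48 h (SE 0.07, limma adjusted p 0.0490), in 2 of 2 libraries, where 1.82% of all genes passed in either direction. This was the only marker called there, and it kept its direction but lost its call in 20 of 21 alternatives, including all 12 that left out 1 library (adjusted p 0.0435 to 0.276 over the alternatives). In degron (−) the difference was −0.09 (95% interval −0.24 to 0.06, adjusted p 0.504). The difference between the populations in this response was 0.42 (SE 0.09, adjusted p 0.129), which did not pass. From 30 h to 48 h at 4 Gy, MYC differed by −0.06 in degron (++) (adjusted p 0.733) and 0.14 in degron (−) (adjusted p 0.266).

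Of 15 partners, paralogs and antagonists of MYC, 14 were tested, with 5 higher and 4 lower at 0 Gy 48 h, beside 37.6% and 40.2% of all genes. MXD1, which competes with MYC for MAX, was at 1.36 and 1.30 FPKM in degron (++) and 5.75 and 5.86 FPKM in degron (−) (log2 fold change −1.55, limma adjusted p 1.12e-07). MAX was at 32.8 and 36.3 FPKM against 19.5 and 20.15 FPKM (log2 fold change 0.77, adjusted p 2.09e-05), and its relative MLX was 0.63 higher (adjusted p 5.57e-07). All 21 MYC target genes of ribosome production and metabolism were tested, with 11 higher and 8 lower at 0 Gy 48 h, beside 37.6% and 40.2% of all genes, around a median of 0.09. At 4 Gy 30 h 13 were higher and 4 lower, beside 38.3% and 40.8% of all genes (median 0.38). At 4 Gy 48 h 13 were higher and 4 lower, beside 37.1% and 39.6% of all genes (median 0.19). FBL, the fibrillarin that methylates ribosomal RNA, was at 168 and 183 FPKM in degron (++) and 2738 and 2788 FPKM in degron (−) (log2 fold change −3.97, adjusted p 7.25e-11). RRP9 and BYSL, both of ribosome assembly, were lower by 0.76 and 0.72, and NOP2, an RNA methyltransferase, was 0.72 higher (adjusted p 5.69e-06, 3.02e-06 and 2.65e-06). With each library rescaled to a fixed sum the targets split into 5 higher and 9 lower at 0 Gy 48 h, beside 27.2% and 48.6% of all genes. The rescaled counts were 7 and 8 at 4 Gy 30 h, beside 25.9% and 51.9%. At 4 Gy 48 h they were 4 and 8, beside 23.5% and 50.6%. PVT1, the noncoding neighbour of MYC, was at 8.97 and 8.54 FPKM in degron (++) and 14.5 and 14.8 FPKM in degron (−) (log2 fold change −0.69, adjusted p 3.84e-06). AADAT and HN1L were closest in pattern to MYC (root mean square differences 0.103 and 0.104), but 1958 genes lay within 2 times the smaller difference.

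SOX2 and POU5F1 (also called OCT4) are transcription factors that hold embryonic stem cells pluripotent. SOX2 was at 0.037 to 0.183 FPKM in degron (++) and 0.031 to 0.103 FPKM in degron (−). Its values were whole multiples of 0.0359 FPKM in 12 of 12 libraries, 1 to 5 steps each, with 16 steps summed over degron (++) and 12 over degron (−). POU5F1 was at 0.108 to 0.290 FPKM in degron (++) and 0.047 to 0.227 FPKM in degron (−), 1 to 5 steps of 0.0542 FPKM, of which 10 of 12 libraries lay within 0.15 of a whole step. The libraries of the populations overlapped for both genes, and both are too low to judge. POU5F1 has near-identical retrocopies, and POU5F1B, POU5F1P3 and POU5F1P4 were each listed at 0 in most libraries, with 0.202 FPKM as the highest value. The neighbouring noncoding genes SOX2-OT and PSORS1C3 each had 1 library above 0, at 0.037 and 0.216 FPKM.

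**Figure D4:**
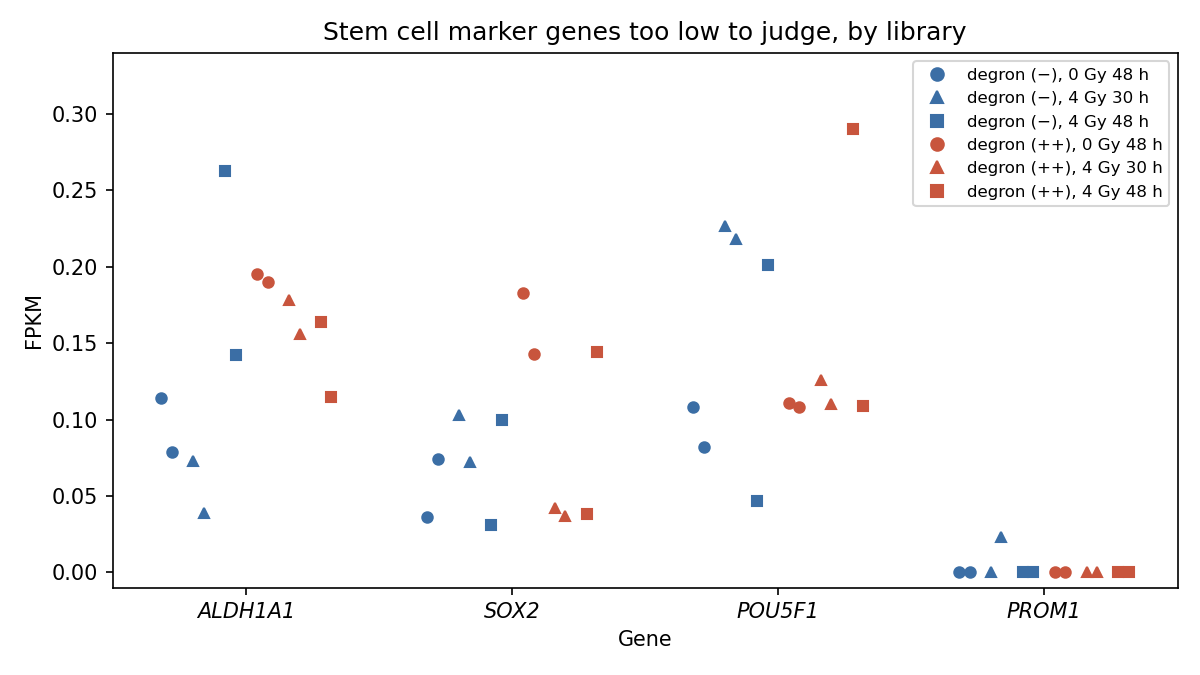
FPKM of the 4 markers that were too low to judge, on a linear scale, with 1 point per library (blue degron (−), red degron (++)). All points lie at or below 0.290 FPKM, the populations overlap, and PROM1 is at 0 in 11 of 12 libraries.

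Of 16 other self-renewal factors and regulators, 11 were tested, with 3 higher and 5 lower in degron (++) at 0 Gy 48 h, beside 37.6% and 40.2% of all genes. KLF5, an epithelial zinc finger factor, was at 41.0 and 36.4 FPKM in degron (++) and 5.03 and 5.49 FPKM in degron (−) (log2 fold change 2.66, limma adjusted p 2.35e-08). KLF4, one of the reprogramming factors, was at 7.27 and 7.445 FPKM against 2.45 and 1.94 FPKM (log2 fold change 1.39, adjusted p 1.66e-06). TERT, the catalytic part of telomerase, was at 1.05 and 1.08 FPKM in degron (++) against 3.16 and 2.96 FPKM (log2 fold change −0.98, adjusted p 7.71e-05). LIN28B, which blocks maturation of let-7 microRNAs, was listed at 0 in all degron (++) libraries and at 1.68 to 2.295 FPKM in degron (−). NANOG was listed at 0 in every library.

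BMI1 is a core protein of polycomb repressive complex 1 and a known repressor of the CDKN2A locus. RefSeq holds promoter entries for 2 start sites of BMI1. The first, at chr10:22320849-22321148 (plus strand, GRCh38.p14), is shown because it alone among the promoters of the markers held the E-box.
BMI1: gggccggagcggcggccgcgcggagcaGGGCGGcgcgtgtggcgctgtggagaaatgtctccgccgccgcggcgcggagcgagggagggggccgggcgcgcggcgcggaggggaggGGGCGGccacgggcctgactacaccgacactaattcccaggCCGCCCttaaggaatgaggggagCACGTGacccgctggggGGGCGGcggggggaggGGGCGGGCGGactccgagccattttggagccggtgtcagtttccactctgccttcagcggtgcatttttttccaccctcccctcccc
The E-box starts 70 bases before the transcription start, counted as −70, and the window held 6 GC boxes. The promoter of the second BMI1 start site held 5 GC boxes and no E-box. A promoter entry was found for 8 of the 10 markers, not for POU5F1 and MYC.

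BMI1 was at 3.89 and 6.80 FPKM at 0 Gy 48 h, 8.18 and 3.33 FPKM at 4 Gy 30 h and 6.69 and 7.17 FPKM at 4 Gy 48 h in degron (++). In degron (−) it was at 11.999 and 10.9 FPKM, 12.8 and 9.18 FPKM and 9.87 and 10.2 FPKM. All degron (++) libraries were below all degron (−) libraries, yet at 0 Gy 48 h and 4 Gy 30 h the 2 libraries of degron (++) lay far apart. The log2 fold changes were −1.01, −0.91 and −0.48 with an SE of 0.33 each, and the limma adjusted p was 0.0192, 0.0300 and 0.212. The last has a 95% interval of −1.23 to 0.27. Leaving out degron (++) replicate 1, degron (−) replicate 1 or degron (−) replicate 2 ended the call at 0 Gy 48 h (log2 fold change −0.67, −0.95 and −1.07). Leaving out degron (++) replicate 2 or degron (−) replicate 1 ended it at 4 Gy 30 h (−0.37 and −0.69).

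BMI1 shares its exons with a readthrough gene, COMMD3-BMI1, so fragments can be assigned to either. COMMD3-BMI1 was at 12.5 to 19.1 FPKM in degron (++) and 14.0 to 17.1 FPKM in degron (−), and it was high where BMI1 was low: 17.6 FPKM in the library with 3.33 FPKM of BMI1, and 12.5 FPKM in the one with 8.18 FPKM. The sum of both was far steadier, 20.6 to 23.9 FPKM in degron (++) and 25.6 to 27.6 FPKM in degron (−). On the sum, degron (++) was lower by 0.24, 0.33 and 0.21 on the log2 scale (log2 fold changes −0.24, −0.33 and −0.21, SE 0.05 each, limma adjusted p 0.0015, 0.000183 and 0.00382). The share of BMI1 in this sum ran from 15.9% to 39.6% among degron (++) libraries and from 35.2% to 47.6% among degron (−) libraries. The upstream gene COMMD3 differed by −0.24, −0.07 and −0.07 (adjusted p 0.0107, 0.336 and 0.369). No dose or time difference of BMI1 or of the sum passed, with an adjusted p of at least 0.633 for BMI1 itself between 0 Gy and 4 Gy. LOC100506314 and BBS1 were closest to BMI1 in pattern, at 0.237 each, a looser likeness than for the other markers. Within 2 times the smaller difference lay 4840 genes.

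**Figure D5:**
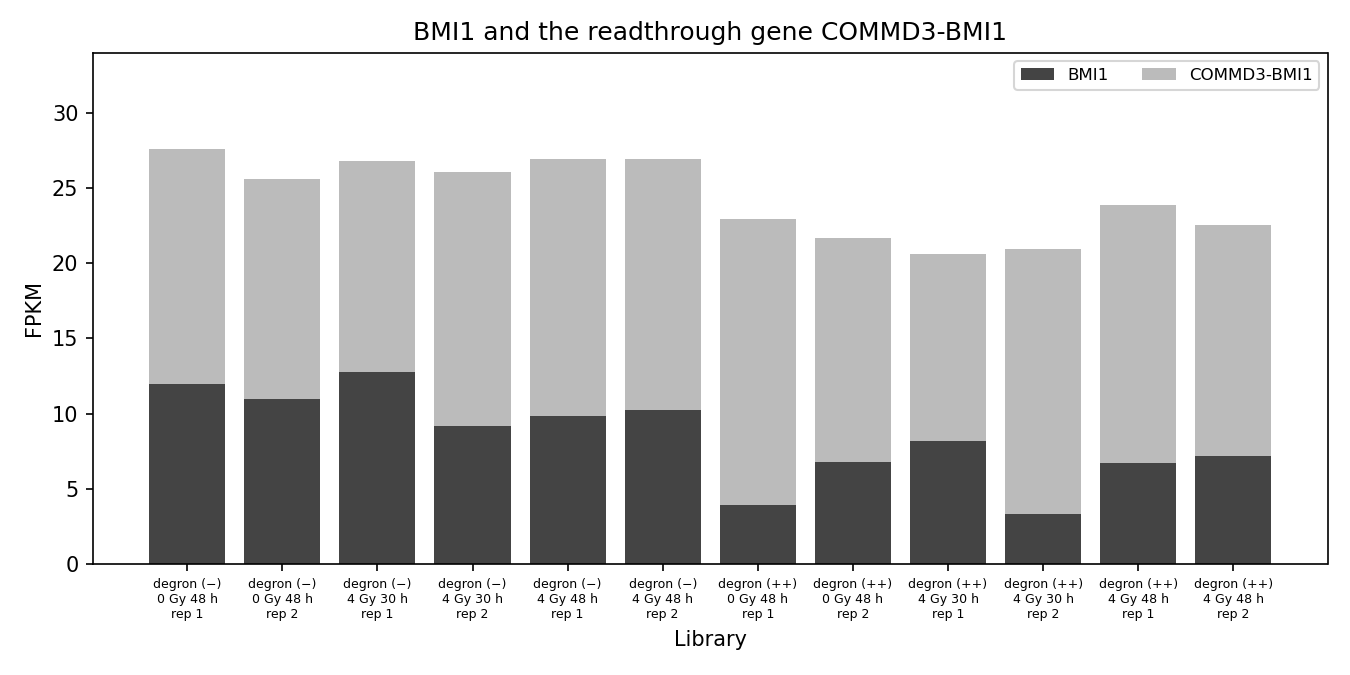
FPKM of BMI1 (dark) and of the readthrough gene COMMD3-BMI1 (light), stacked from 0 for each of the 12 libraries. The dark part varies from 3.33 to 8.18 FPKM among degron (++) libraries, while the stacks reach 20.6 to 23.9 FPKM there and 25.6 to 27.6 FPKM in degron (−).

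Of 19 genes of polycomb repressive complex 1 and its target locus, all were tested, with 5 higher and 8 lower in degron (++) at 0 Gy 48 h, beside 37.6% and 40.2% of all genes. The 5 higher genes include CDKN2A, CDKN2B and MTAP of the target locus, and the 8 lower genes are all of the complex, so the pooled count does not describe the complex alone. CBX6, a chromodomain subunit, was at 6.15 and 6.50 FPKM in degron (++) and 22.2 and 22.1 FPKM in degron (−) (log2 fold change −1.66, limma adjusted p 9.13e-09). The higher members with the largest change lay at the target locus on 9p: CDKN2A with a log2 fold change of 2.57 (adjusted p 2.01e-08), CDKN2B, another cyclin kinase inhibitor, at 13.2 and 12.5 FPKM against 1.69 and 1.40 FPKM (2.44, adjusted p 5.76e-08), and their neighbour MTAP, an enzyme of methionine salvage, at 16.9 and 17.8 FPKM against 4.07 and 3.77 FPKM (1.90, adjusted p 2.23e-08). Part of this region is known to be lost in PANC-1, and whether BMI1 has a part in the level of these 3 genes was not tested.

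DCLK1 is a microtubule-associated kinase that marks tuft cells of the gut and pancreas. In degron (++) DCLK1 was at 0.697 and 0.798 FPKM at 0 Gy 48 h, 1.16 and 1.33 FPKM at 4 Gy 30 h and 1.07 and 0.852 FPKM at 4 Gy 48 h. In degron (−) it was at 0.542 and 0.372 FPKM, 0.397 and 0.420 FPKM and 0.615 and 0.741 FPKM. Within each condition degron (++) was higher in both libraries, but the highest degron (−) library was above the lowest degron (++) library of another condition. The log2 fold changes were 0.26, 0.67 and 0.22, given with no test for the reason above. With 1 FPKM added before the logarithm, fold changes at this level are understated: the ratios of mean FPKM were 1.64, 3.04 and 1.42.

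The 3 degron (++) libraries through which DCLK1 passed the filter were all irradiated, so its dose and time differences are also given with no test. The largest was a time by population value of −0.45, from −0.19 in degron (++) and 0.25 in degron (−). Of 11 other tuft cell genes 2 were tested, with 37.6% of all genes higher in degron (++). ALOX5, a leukotriene enzyme, was at 6.78 and 7.315 FPKM at 0 Gy 48 h against 0.948 and 0.352 FPKM and passed the filter only through degron (++), and PTGS1, the cyclooxygenase COX-1, was at 5.28 and 4.97 FPKM against 1.95 and 1.36 FPKM (log2 fold change 1.21, adjusted p 1.88e-05). ADORA2B and CCNB1 were closest to DCLK1 in pattern (0.0699 and 0.0721), at far higher levels, and 516 genes lay within 2 times the smaller difference.

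Across the markers, dose and time gave few calls. DCLK1 is left out of these counts. Between 0 Gy and 4 Gy at 48 h, 1 of the other 5 tested markers passed in each population (MYC in degron (++), ALDH1A3 in degron (−)), beside 1.82% and 4.73% of all genes. Between 30 h and 48 h at 4 Gy, 2 passed in degron (++) (CD44 and CD24, in opposite directions) and 1 in degron (−) (ALDH1A3), beside 1.21% and 7.18% of all genes. These comparisons share the libraries at 4 Gy 48 h. By limma's test of the difference between populations, 0 of 5 passed for dose, with 3 at an unadjusted p under 0.05 and 0.0772% of all genes called. For time, 3 of 5 passed, with 3.23% of all genes called.

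In degron (++) the order of levels per length was ALDH1A3, CD44, CD24, MYC, BMI1 and DCLK1, and in degron (−) it was CD44, CD24, ALDH1A3, MYC, BMI1 and DCLK1. Libraries of neighbours in these orders did not overlap within any of the 6 groups. The order of the low genes ALDH1A1, POU5F1 and SOX2 cannot be read from their values, and PROM1 was the lowest.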

How the data were processed

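Total RNA of sorted cells labelled PANC-1 was extracted and stranded mRNA libraries were sequenced, 12 in all. Per the labels, the submitters' processing notes name hg19, TopHat2 2.1.1, Bowtie2 2.2.8, SAMtools 0.1.18 and Cuffdiff 2.2.1, while annotation and strand setting are not given in the sources used here. The authors deposited FPKM for each gene and library, with no counts, so counting error is unknown.

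From these, log2(FPKM + 1) of the 12946 genes with at least 1 FPKM in at least 2 libraries was tested with limma 3.58.1 (eBayes with trend, 6 group means, R 4.3.3), with Benjamini-Hochberg adjustment over all of them and 0.05 as the threshold. Every fold change is on that scale unless called a ratio. Values given with 95% intervals come from the same fit. In simulated data with 200 of 12946 genes shifted by 2 on the log2 scale in 3 comparisons (population at 0 Gy 48 h, dose in degron (−) and the dose interaction), 98.5% to 100% were recovered with 7 to 13 false calls. Recovery of smaller shifts, such as the dose, time and interaction values given here for the markers, was not tested. The 10 genes and the lists beside them were chosen with earlier results of these data known. All 10 are reported, with up to 4 genes per list (those past the threshold with the largest change at 0 Gy 48 h), genes that overlap or resemble a marker, and the 2 genes nearest in pattern to each tested marker. KIT and NANOG were named after their values were seen. The result of 1 listed gene is not reported here. Python 3.11.15, numpy 2.4.6, pandas 2.3.3 and matplotlib 3.10.9 were used. Alternatives were TPM rescaling with and without MIR622, quantile normalization, a minimum of 5 FPKM or none, pseudocount 0.1, no trend, a replicate block, fits on only the libraries compared and leaving out each library. Summing BMI1 with COMMD3-BMI1 was added after the data were seen.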

Additional observations from a re-analysis of the deposited data

Results flagged for a closer look

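In 3 markers the change from 30 h to 48 h at 4 Gy differed between the populations by limma's test of the difference. For ALDH1A3 the difference, degron (++) minus degron (−), was −0.35 (SE 0.06, adjusted p 0.0197), from −0.05 in degron (++) and 0.30 in degron (−). For CD24 it was 0.36 (SE 0.06, adjusted p 0.0273), from 0.32 and −0.04. For CD44 it was −0.24 (SE 0.05, adjusted p 0.0400), from −0.30 and −0.06. All 3 kept their direction in 21 alternatives, and the call was lost in 8 of these for ALDH1A3, 13 for CD24 and 17 for CD44, with adjusted p of 0.0162 to 0.0974, 0.0228 to 0.104 and 0.0277 to 0.322. What the hours were counted from is not in the labels.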

How the results depend on the processing

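Over 486 values under the alternatives other than leaving out a library, 433 kept direction and side of the threshold, 41 lost their call, 5 gained one and 7 reversed. These values include DCLK1, which has no test here, BMI1 summed with COMMD3-BMI1, and fits on only the libraries compared. Over 648 fits without 1 library, DCLK1 included, 14 reversed. For ALDH1A3, CD44 and CD24 between the populations none of 21 alternatives changed a call. Rescaling to a fixed sum (TPM) moved the median of all genes to −0.21, −0.27 and −0.25 and the higher share of the calls from 48.3%, 48.5% and 48.3% to 35.9%, 33.3% and 31.7%; relative to the median, ALDH1A3 then stood at 2.11, 2.10 and 1.75 and MYC at −0.77, −0.17 and −0.38. For ALDH1A3 with dose in degron (++) the value reversed to −0.0418 with quantile normalization, −0.0626 with TPM and −0.0552 without MIR622; DCLK1 in the dose interaction to 0.0446 with quantile normalization; CD44 there to −0.00069 without MIR622; and BMI1 summed with COMMD3-BMI1 to 0.0189 for dose and 0.0245 for time in degron (−). The cause was not tested.

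The count of markers past the threshold for dose in degron (++) fell from 1 to 0 with pseudocount 0.1, no filter, quantile normalization, TPM, without MIR622, no trend, the replicate block and only the libraries compared. With only the libraries compared (fewer samples), it fell to 0 for dose and time in degron (−), time in degron (++) and the time interaction. For time in degron (++) it fell from 2 to 1 with no filter, 0 with TPM and 0 without MIR622. For the time interaction it fell from 3 to 1 with no filter, 0 with TPM, 1 without MIR622 and 1 with no trend. For the dose interaction it rose from 0 to 1 with quantile normalization.

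Counts of markers past the threshold are not given for the fits without 1 library. A group then holds 1 library, and DCLK1 has no test here. Values that changed sign ran from −0.0273 to 0.0462 (ALDH1A3) for dose in degron (++), −0.0608 to 0.0232 (CD24) for dose in degron (−), −0.21 to 0.87 (BMI1) and −0.14 to 0.0239 (MYC) for time in degron (++), −0.32 to 0.12 (BMI1) and −0.0784 to 0.00556 (CD24) for time in degron (−), −0.12 to 0.0448 (DCLK1) for the dose and −0.11 to 0.97 (BMI1) for the time interaction. Same-numbered libraries shared little deviation: over 15 pairs of groups the correlation across genes was −0.04 to 0.12, with 2 over 0.1. The labels do not say whether the numbers pair the samples, and weak correlations cannot decide it. With the replicate block MYC lost its call for dose in degron (++) and at 4 Gy 30 h between the populations, and CD44 lost it for the time interaction. Without the filter, of the markers too low to judge only ALDH1A1 at 4 Gy 30 h passed (adjusted p 0.0442). Depth was not given, so no limit of detection can be set for these 4 genes.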

Other observations

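The markers of cell shape split in ways that no single list describes. VIM, ZEB1, a repressor of epithelial genes, and COL1A1, a collagen, were lower in degron (++): at 0 Gy 48 h VIM was at 14.7 and 16.6 FPKM against 2542 and 2605 FPKM, ZEB1 at 0.03 and 0.059 FPKM against 8.17 and 7.84 FPKM, and COL1A1 at 0.605 and 0.531 FPKM against 52.3 and 44.1 FPKM (limma adjusted p 2.38e-11 for VIM; ZEB1 and COL1A1 passed the filter only through degron (−) and are given with no test). CDH2, the N-cadherin often read as mesenchymal, went the other way with 42.1 and 41.2 FPKM against 6.825 and 5.71 FPKM (log2 fold change 2.56, adjusted p 9.13e-09). It was higher in degron (++) together with the epithelial CDH1, at 65.2 and 62.8 FPKM against 8.36 and 7.69 FPKM (2.85, adjusted p 3.31e-10). LUM, the matrix protein lumican, was also higher there, at 24.7 and 22.6 FPKM against 1.38 and 1.16 FPKM (3.44, adjusted p 8.65e-09).

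Among 5 leukocyte markers, CD68, a lysosomal protein of macrophages, was at 124 to 165 FPKM in degron (−) and 2.91 to 4.62 FPKM in degron (++) (log2 fold change −5.06 at 0 Gy 48 h, limma adjusted p 3.72e-09). CD14, a receptor of monocytes, went the other way, from 0.187 and 0.583 FPKM in degron (−) at 0 Gy 48 h to 1.92 and 1.84 FPKM in degron (++). Only 1 degron (−) library reached 1 FPKM of CD14, so it passed the filter through degron (++) and is given with no test. The defining markers PTPRC and CD3E were at or near 0 in every library. Of the endothelial, acinar and endocrine markers, 0 reached 1 FPKM.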
